A study of Mus musculus with 207 samples.

Results

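The livers of mice fed WPI-30_FAT-40 were set against the livers of mice fed WPI-30_FAT-20, with 12 libraries on each diet. These 24 libraries were chosen by their diet labels out of 70 liver libraries and 207 libraries in the whole series, which also covered the jejunum and the hypothalamus. All mice were C57BL/6, and both diets carried the same protein label, WPI-30; they differed in the fat label, FAT-40 or FAT-20. The labels do not spell out WPI and CAS, which are read here as whey protein isolate and casein from knowledge of the study, and give no unit for the numbers in the diet names. Total RNA was taken from liver tissue with an RNeasy Mini kit and sequenced on an Illumina machine, and reads were counted per gene. The labels give neither the sex nor the age of the mice, and no batch, date or length of feeding. A further 12 liver libraries, of WPI-30_FAT-55, were used to see whether the response went on at a higher fat level. To see whether the response depended on the protein, 12 of CAS-30_FAT-40 and 11 of CAS-30_FAT-20 were used. The remaining liver libraries, of CAS-30_FAT-55, were part of the fit of all 70 and of the plot of means by fat level. They entered no contrast.

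The liver both burns and builds fat. Fatty acids that enter hepatocytes are shortened in mitochondria and in peroxisomes, and the receptor PPARα switches on the genes for these steps, for the Cyp4a enzymes that oxidise the tail end of a fatty acid, and for the thioesterases that cut acyl groups from coenzyme A. The opposite branch makes new fatty acids from sugar and is driven largely by the transcription factor SREBP-1c, the product of Srebf1. A diet with more fat and less carbohydrate, and the feeding state of the animal, are known to move both branches.

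The FAT-40 libraries held 21.1 to 27.2 M reads on genes (median 24.6 M) and the FAT-20 libraries 23.2 to 32.3 M (median 27.3 M). In each of the 24 libraries Ddx3y, from the Y chromosome, was at 78.9 CPM (counts scaled to a common library size) or more and Xist, the RNA of an inactive X, at 0.348 CPM or less. Mouse identifiers fell into 4 stems per diet, each shared by 3 libraries and found on 1 diet; the labels do not say what a stem is, and p-values over single libraries treat the 3 mice of a stem as independent. Some libraries stood apart from the rest. FAT-40 replicate 2 carried pancreas mRNA, with Cela1, an elastase of the exocrine pancreas, at 201 CPM, against 7.27, 12 and 17.2 CPM as the lowest, median and highest of the FAT-20 libraries. FAT-40 replicates 1 to 3, replicate 2 among them, share the stem M8D and lay at one end of the first principal component of the 24 libraries, which held 21.6% of the variance. Their unmapped reads were 9.71, 10.4 and 10.8% of all reads. The highest share in any other of the 24 libraries was 7.50%, in FAT-40 replicate 9. Whether this bears on the levels in stem M8D below was not tested. Within FAT-20, replicates 3 and 5 were far above the others in Fos and Fosb.

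Of 15051 genes tested, 984 (6.54%) differed between FAT-40 and FAT-20 at an adjusted p under 0.05. These were 631 genes higher in FAT-40 livers (4.19%) and 353 lower (2.35%). These shares over all genes are the ones to set beside the counts of each gene list below. Most of the changes were small. The median size of a called log2 fold change was 0.30, and 93 called genes, 63 higher and 30 lower, changed by more than 1 on the log2 scale. When the 3 libraries of a stem were added up to give 4 samples per diet, 58 genes were called, 38 higher and 20 lower, and all 58 were among the 984. With stem as a random effect in limma, 249 genes were called, 248 of them among the 984. Of the called genes named below or in the closing section, 67 of 86 lost their call on counts added up by stem and 43 with stem as a random effect. In bulk tissue, fewer cells of a type and less RNA per cell cannot be told apart, which holds for every level below.

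Among the genes that separated the libraries fully were Ehhadh, Acot1 and Cyp4a14, which act on fatty acids and fell. Ehhadh (chr16:21761287-21787807, minus strand, GRCm38) encodes the peroxisomal bifunctional enzyme, which carries out a pair of middle steps of peroxisomal β-oxidation. It measured 379.9, 601 and 979 CPM as the lowest, median and highest of the FAT-40 libraries, against 1256, 2107 and 3942 CPM in the FAT-20 libraries. The highest FAT-40 library was thus below the lowest FAT-20 library. Ehhadh fell by 1.83 on the log2 scale (SE 0.18, edgeR adjusted p = 2.89e-11), with means of 620.1 ± 191 CPM in FAT-40 and 2207 ± 872 CPM in FAT-20 (SD, n = 12 each). Acot1 (chr12:84009490-84018371, plus strand), which encodes a cytosolic acyl-CoA thioesterase, had 14.6, 37.7 and 66.4 CPM in FAT-40 livers and 85.8, 121 and 153 CPM in FAT-20 livers. Its libraries did not overlap either, and the log2 fold change was -1.66 ± 0.20 (SE; edgeR adjusted p = 6.69e-08). Averaged within each stem, the 4 FAT-40 stems were all below the 4 FAT-20 stems for both Ehhadh and Acot1, which gives an exact two-sided permutation p = 0.0286, the smallest that 4 stems against 4 allow (0.0381 after Benjamini-Hochberg adjustment over the 4 marker genes). The markers were chosen with earlier results of these data known. The permutation p-values here and below therefore only describe these genes and are not independent support.

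**Figure D1:**
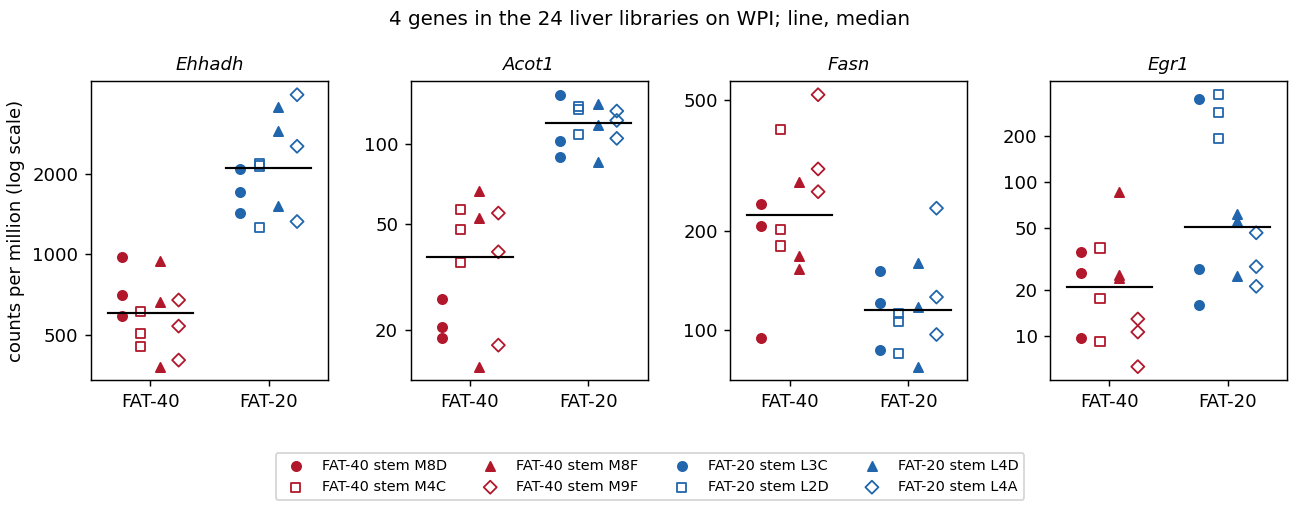
CPM (log axis) of Ehhadh, Acot1, Fasn and Egr1 in the 12 FAT-40 libraries (left, red) and the 12 FAT-20 libraries (right, blue) on WPI, with 1 symbol per library, a shape per identifier stem and a line at the median. The FAT-40 and FAT-20 libraries are apart for Ehhadh and Acot1 and overlap for Fasn and Egr1.

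The ω-hydroxylases of the Cyp4a family followed. Cyp4a14 (chr4:115486200-115496142, minus strand) measured 519, 1336 and 2724 CPM in FAT-40 libraries, against 3599.6, 5273 and 7279 CPM in FAT-20 libraries, again with no overlap, and its log2 fold change was -1.97 ± 0.21 (SE; edgeR adjusted p = 9.65e-10). Cyp4a10 had 482, 970.5 and 1576 CPM and Cyp4a31 11.3, 31.5 and 109 CPM in FAT-40 livers. In FAT-20 livers the same genes had 1451, 2208 and 3218 CPM and 84.5, 130.3 and 254 CPM. The libraries of both genes overlapped, and both fell, Cyp4a10 by 1.18 and Cyp4a31 by 1.88 on the log2 scale. The Cyp4a genes are near-identical neighbours. Reads matching several places were kept apart from the gene counts, so part of their reads may be missing from these levels. Of 11 tested members of the Cyp4a and Cyp4f list these 3 fell and 8 were not called; the median log2 fold change of the list was -0.15, against 0.01 over all 15051 genes.

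Only 4 genes of the 15051 (0.0266%) had every FAT-40 library below every FAT-20 library: Ehhadh, Acot1, Cyp4a14 and Hsd17b11. Hsd17b11 (chr5:103989762-104021919, minus strand) encodes a lipid-droplet steroid dehydrogenase and had 179, 243 and 299.9 CPM in FAT-40 livers, against 317, 365 and 483 CPM in FAT-20 livers. Its log2 fold change was -0.68 ± 0.09 (SE; edgeR adjusted p = 2.02e-07). The reverse, every FAT-40 library above every FAT-20 library, was found for 2 genes (0.0133%). They were Ube2l3 (chr16:17152013-17202649, minus strand), a ubiquitin-conjugating enzyme, with 53.8, 59.2 and 62.3 CPM in FAT-40 and 45.6, 49.6 and 51.9 CPM in FAT-20, and Ssr3 (chr3:65379655-65392623, minus strand), a subunit of the translocon-associated complex, with 222, 239 and 269.7 CPM in FAT-40 and 166, 204 and 216 CPM in FAT-20. Both were small changes, at log2 fold changes of 0.24 and 0.28. Hsd17b11, Ube2l3 and Ssr3 were singled out after their values were seen.

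Within peroxisomal β-oxidation, 5 of 21 tested members fell, 1 rose and 15 were not called (median log2 fold change -0.10), with 6.54% of all genes called. Over stems, 6 members were called with stem as a random effect and 2 by edgeR on counts added up by stem (7 at an unadjusted p under 0.05). Acaa1b, one of the thiolases that perform the last step, had 751, 1175 and 1761 CPM in FAT-40 livers, against 1500.0, 1915 and 2709 CPM in FAT-20 livers with overlapping ranges (log2 fold change -0.75 ± 0.11, SE; edgeR adjusted p = 9.30e-06). The other members that fell were Crat, a carnitine acetyltransferase (-0.62), Ech1, an enoyl-CoA isomerase (-0.36), and Acaa1a, the second thiolase (-0.31), beside Ehhadh. The single member that rose was the oxidase Acox3 (0.21). On counts added up by stem Crat, Ech1, Acaa1a and Acox3 were not called (edgeR adjusted p = 0.106, 0.121, 0.163 and 0.0661). Acaa1a also lost its call without stem L4D. Among 11 tested acyl-CoA thioesterases 2 fell, Acot1 and the peroxisomal Acot8 (-0.29), and 9 were not called. Acot8 was not called on counts added up by stem (edgeR adjusted p = 0.0717). Acot2, the mitochondrial neighbour of Acot1 with a near-identical sequence, had a log2 fold change of -0.69 ± 0.23 (SE) and an edgeR adjusted p of 0.0602.

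Mitochondrial β-oxidation showed a broader and shallower change. Of 19 tested members 10 fell, 9 were not called and none rose (median log2 fold change -0.22). The subunits of the trifunctional protein, Hadhb and Hadha, had log2 fold changes of -0.37 ± 0.06 and -0.36 ± 0.06 (SE). Hadhb measured 226, 279 and 339 CPM in FAT-40 livers, against 321, 352 and 403 CPM in FAT-20 livers, so that the ranges overlapped slightly. The acyl-CoA dehydrogenases for very long, long and medium chains, Acadvl (-0.27), Acadl (-0.30) and Acadm (-0.34), fell as well. Cpt1a, which passes fatty acids into mitochondria, was not called (-0.14 ± 0.10, SE; edgeR adjusted p = 0.433). The list's count was 7 with stem as a random effect, 7 without stem M8D and 1 when counts were added up by stem.

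Of 24 tested PPARα targets outside β-oxidation, 1 fell, 1 rose and 22 were not called, with 6.54% of all genes called (median log2 fold change -0.16). The member that fell was Retsat, which saturates retinol, with 241, 415 and 711 CPM in FAT-40 livers and 618, 932 and 1219 CPM in FAT-20 livers. The ranges overlapped, and the log2 fold change was -1.09 ± 0.14 (SE; edgeR adjusted p = 8.84e-08). Aldh1a7, an aldehyde dehydrogenase, rose by 0.37 on the same scale. Its call was lost on counts added up by stem (edgeR adjusted p = 0.193) and with stem as a random effect (limma adjusted p = 0.084). It was also lost with only the compared diets in the fit and without stem L4D, M4C or M9F. Not called were Pdk4, a brake on sugar oxidation (-0.11, edgeR adjusted p = 0.891), Angptl4, a secreted lipase inhibitor (-0.16, adjusted p = 0.677), and the hormone Fgf21 (-0.16, adjusted p = 0.866). The mRNA of the receptor itself, Ppara, had a log2 fold change of -0.06 and was not called (edgeR adjusted p = 0.821). Outside the lists, Gm15441, annotated as an antisense RNA gene, had 0.232, 1.06 and 2.26 CPM in FAT-40 livers and 1.07, 5.27 and 12.4 CPM in FAT-20 livers (log2 fold change -2.49 ± 0.37, SE). The strand setting of the counts is not given in the sources used here, so its reads and those of the gene on the other strand cannot be told apart.

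**Figure D2:**
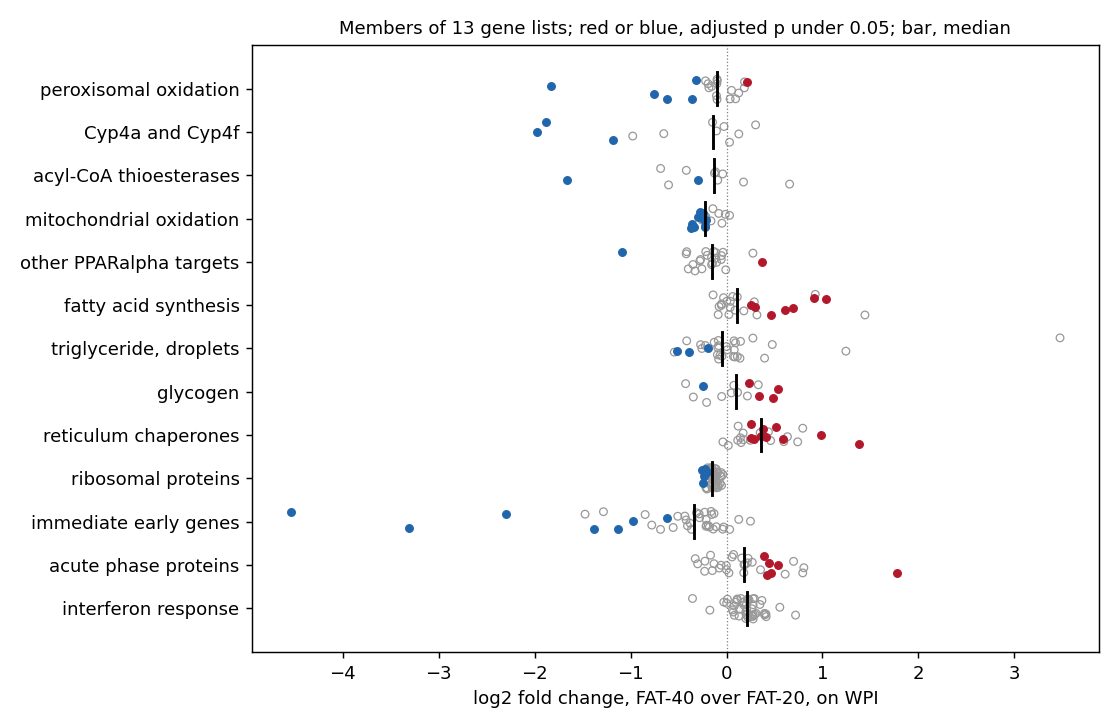
Log2 fold changes of FAT-40 over FAT-20 on WPI (x axis) for the tested members of 13 gene lists (y axis), with 1 point per gene, filled in red (higher) or blue (lower) where the adjusted p was under 0.05 and open grey where it was not. The bar is the list's median; it lies at -0.22 for mitochondrial oxidation and at 0.36 for the reticulum chaperones.

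Of 25 tested genes of fatty acid synthesis and desaturation 7 rose, none fell and 18 were not called (median log2 fold change 0.11, against 0.01 over all genes). Fasn (chr11:120805846-120824547, minus strand), the fatty acid synthase, had 94.2, 224 and 520.2 CPM in FAT-40 livers, against 77.1, 114 and 234 CPM in FAT-20 livers. The ranges overlapped, and 11 of the 12 FAT-40 libraries were above the FAT-20 median. The log2 fold change was 1.04 ± 0.24 (SE; edgeR adjusted p = 0.00385), and the 4 FAT-40 stems were above the 4 FAT-20 stems (exact two-sided permutation p = 0.0286, or 0.0381 adjusted over the 4 markers). On counts added up by stem Fasn was not called (edgeR adjusted p = 0.157). Srebf1 measured 101, 220.1 and 710.1 CPM in FAT-40 and 71.8, 143 and 234 CPM in FAT-20, a log2 fold change of 0.92 ± 0.21 (SE; edgeR adjusted p = 0.00447) that was no longer called without stem M9F. The remaining members that the text names were Taldo1 of the pentose phosphate pathway (0.26), Mid1ip1, a helper of acetyl-CoA carboxylase (0.61), and Acly, which makes cytosolic acetyl-CoA (0.46).

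Some of the synthesis calls depended on single libraries. Acly lost its call when any 1 of 16 libraries was left out (FAT-40 replicates 5, 6, 7, 10, 11 and 12 and FAT-20 replicates 1 to 10), and Mid1ip1 when any 1 of 6 was (FAT-40 replicates 10 and 12 and FAT-20 replicates 5, 8, 9 and 12). Across the list, 10 genes were called without stem M8D, 3 with sample quality weights, 1 with stem as a random effect and, by edgeR on counts added up by stem, 0 (8 at an unadjusted p under 0.05). Scd1, the main stearoyl-CoA desaturase, was not called (0.09 ± 0.30, SE; edgeR adjusted p = 0.909), nor were Thrsp (1.44, adjusted p = 0.0671) or Acaca (0.32, adjusted p = 0.0915). Of 27 cholesterol synthesis genes 2 rose, Nsdhl (0.81) and Sc5d (0.43), and 25 were not called (median 0.14), a share close to the 6.54% of all genes. Neither passed with stem as a random effect (limma adjusted p = 0.0939 for Nsdhl and 0.0514 for Sc5d) or on counts added up by stem (edgeR adjusted p = 0.053 and 0.165), and the list had 0 calls in either setting, with 5 and 7 members at an unadjusted p under 0.05.

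Of 31 tested genes of triglyceride synthesis and lipid droplets 3 fell, none rose and 28 were not called, with 6.54% of all genes called (median log2 fold change -0.05). Over stems, 2 were called with stem as a random effect and 0 by edgeR on counts added up by stem (8 at an unadjusted p under 0.05). The 3 were Pnpla2, the adipose triglyceride lipase that frees fatty acids from droplets (-0.39 ± 0.09, SE), Agpat3, an acyltransferase (-0.20), and Lpin2, a phosphatidate phosphatase (-0.52), the last of which lost its call when any 1 of 18 libraries was left out (FAT-40 replicates 1 to 5, 8, 10 and 12 and FAT-20 replicates 2, 3 and 5 to 12). Cidea, a droplet protein that is low in lean liver, measured 0, 0.0596 and 7.7 CPM in FAT-40 and 0, 0.056 and 0.212 CPM in FAT-20 and was not called (edgeR adjusted p = 0.0626). Without FAT-40 replicate 5 the log2 of FAT-40 over FAT-20 means was 0.55, against 3.45 with it. Mogat1, a monoacylglycerol acyltransferase, had 0.0886, 0.727 and 5.55 CPM in FAT-40 and 0.133, 0.548 and 1.03 CPM in FAT-20 and was not called either (edgeR adjusted p = 0.0521).

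A group of chaperone genes of the endoplasmic reticulum rose. The reticulum folds secreted proteins, and when unfolded protein builds up, the factors ATF6 and XBP1 are known to raise its chaperones through response elements in their promoters. Of 26 tested members 10 rose, none fell and 16 were not called, and the median log2 fold change was 0.36, against 0.01 over all genes. Pdia6, a disulfide isomerase, had 113, 165 and 246 CPM in FAT-40 livers, against 76.3, 117 and 139 CPM in FAT-20 livers. The ranges overlapped, and the log2 fold change was 0.59 ± 0.12 (SE; edgeR adjusted p = 9.89e-04). Canx, the membrane lectin chaperone calnexin, had 333, 377 and 428 CPM in FAT-40 and 249, 325 and 346 CPM in FAT-20, with all 12 FAT-40 libraries above the FAT-20 median (log2 fold change 0.26 ± 0.05, SE). Its soluble partner Calr measured 328, 439 and 656 CPM in FAT-40 and 227, 335 and 386 CPM in FAT-20, a rise of 0.52 that was not called without stem M8D.

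Further members that rose were the isomerase Pdia3 (0.38), the co-chaperone Dnajb11 (0.41), the chaperone Hsp90b1 (0.36) and the retrotranslocation factor Derl2 (0.29). Derl3 rose by 1.38, but lost its call when any 1 of 14 libraries was left out (FAT-40 replicates 2, 3, 5, 6, 7 and 12 and FAT-20 replicates 2, 3, 5, 6, 7, 9, 11 and 12). Hspa5, the master chaperone BiP, measured 338, 649.9 and 1024 CPM in FAT-40 and 202, 432 and 724 CPM in FAT-20 and was not called (log2 fold change 0.60 ± 0.21, SE; edgeR adjusted p = 0.0772). Likewise Hyou1 (0.64, adjusted p = 0.107) and Manf (0.74, adjusted p = 0.0615) did not pass. Hspa5, Hyou1 and Manf were each called in at least 1 of the alternative settings. The list gave 4 calls without stem M8D, 5 with stem as a random effect, 7 without FAT-20 replicates 3 and 5 and, by edgeR on counts added up by stem, 0 (18 at an unadjusted p under 0.05).

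The promoters of these chaperones were read from RefSeq (GRCm38.p6), from 250 bases before to 50 bases after each gene's start, and searched on both strands for the full element, CCAAT and CCACG with any 9 bases between them. It was present in 39 of 32851 promoters (0.119%), and in 9 of the 22 list members with a promoter in the table (40.9%). The first count is of promoters and the second of genes with the element in any promoter. The list holds genes of this response, whose promoters are known to carry such elements, so its share says nothing about these livers. The element occurred in 5 of 10 called members and in 4 of 12 members that were not called, Hspa5 among them. The windows below show the element with 20 bases on either side in the 5 called genes and, for contrast, in Hspa5, each 5′ to 3′ on the gene's strand with the element in capitals; Calr, Derl3 and the second window of Hsp90b1 hold its reverse complement, CGTGG and ATTGG with 9 bases between them. The coordinates are Pdia6 chr12:17266471-17266529 (plus), Canx chr11:50325780-50325838 (minus), Calr chr8:84847055-84847113 (minus), Hsp90b1 chr10:86705618-86705676 and chr10:86705513-86705571 (minus), Derl3 chr10:75893222-75893280 (plus) and Hspa5 chr2:34772005-34772063 (plus).
Pdia6: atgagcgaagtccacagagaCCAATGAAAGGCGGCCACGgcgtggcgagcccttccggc
Canx: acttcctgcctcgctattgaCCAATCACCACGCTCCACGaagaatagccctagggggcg
Calr: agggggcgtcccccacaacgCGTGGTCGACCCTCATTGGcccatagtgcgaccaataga
Hsp90b1, first window: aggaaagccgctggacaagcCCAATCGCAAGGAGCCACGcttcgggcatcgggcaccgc
Hsp90b1, second window: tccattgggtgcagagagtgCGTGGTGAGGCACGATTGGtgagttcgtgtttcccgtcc
Derl3: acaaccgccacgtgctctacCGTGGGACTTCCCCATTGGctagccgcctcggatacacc
Hspa5: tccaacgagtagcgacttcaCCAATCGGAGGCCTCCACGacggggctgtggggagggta

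Glycogen genes rose in part. Of 14 tested members 4 rose, 1 fell and 9 were not called (median log2 fold change 0.10), with 6.54% of all genes called. Over stems, 3 members of the list were called with stem as a random effect and 1 by edgeR on counts added up by stem (5 at an unadjusted p under 0.05). Pygl (chr12:70190811-70231488, minus strand), the liver phosphorylase that breaks glycogen down, had 310.2, 397 and 522 CPM in FAT-40 livers, against 217, 275 and 346 CPM in FAT-20 livers. The ranges overlapped, all 12 FAT-40 libraries were above the FAT-20 median, and the log2 fold change was 0.54 ± 0.08 (SE; edgeR adjusted p = 3.54e-06). Phkb, a subunit of the kinase that activates the phosphorylase, rose by 0.23. The branching enzyme Gbe1 rose by 0.49, a call lost without stem M4C or M9F, and Ugp2, which makes the sugar donor, by 0.34, a call lost when any 1 of 5 libraries was left out (FAT-40 replicates 4, 10, 11 and 12 and FAT-20 replicate 9). Gaa, the lysosomal glucosidase, fell by 0.24. On counts added up by stem Phkb, Gbe1, Ugp2 and Gaa were not called (edgeR adjusted p = 0.0512, 0.263, 0.334 and 0.187).

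Some acute phase genes rose. Of 32 tested members 6 rose, none fell and 26 were not called (median log2 fold change 0.18), with 6.54% of all genes called. Orm3, an orosomucoid, measured 0.9, 3.92 and 8.94 CPM in FAT-40 livers and 0.46, 1.05 and 2.76 CPM in FAT-20 livers. The ranges overlapped (log2 fold change 1.77 ± 0.35, SE; edgeR adjusted p = 7.07e-04). The fibrinogen chain genes Fga (0.44) and Fgg (0.42) rose, and both calls were lost when FAT-40 replicate 1, 2, 3 or 8 or FAT-20 replicate 7 was left out, that of Fgg also without FAT-20 replicate 2. The apolipoprotein Saa4 (0.47) lost its call without any 1 of 10 libraries (FAT-40 replicates 6, 11 and 12 and FAT-20 replicates 1 to 5, 7 and 10). Steap4, a metalloreductase, rose by 0.53. Without stem M8D the list's median was -0.07, with 3 calls higher and 1 lower, and 0 members were called by edgeR on counts added up by stem (6 at an unadjusted p under 0.05) or by limma with stem as a random effect (7).

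All 54 tested ribosomal protein genes had a negative log2 fold change (median -0.15). Of these, 6 fell and 48 were not called, with 6.54% of all genes called. Rps19 (-0.26), Rpl13 (-0.24) and Rpl28 (-0.24) were among the 6. The count of called members was 27 with sample quality weights and, by edgeR on counts added up by stem, 0 (21 at an unadjusted p under 0.05). With 6.54% of all genes called, 4 of 44 tested genes of the urea cycle and amino acid breakdown rose. A further 2 fell and 38 were not called (median 0.01). The random effect fit called 2 members of the list, and edgeR on counts added up by stem 0 (8 at an unadjusted p under 0.05). Csad, which makes the taurine precursor, had 24.7, 85 and 237 CPM in FAT-40 livers and 63.3, 193 and 465 CPM in FAT-20 livers (log2 fold change -1.14 ± 0.26, SE; edgeR adjusted p = 0.00331). Otc, an enzyme of the urea cycle, rose by 0.28. In bile acid synthesis and transport 2 of 22 tested members rose, none fell and 20 were not called. The list's median log2 fold change was -0.002, and 6.54% of all genes were called. Cyp2c70, which makes the muricholic acids of the mouse, rose by 1.07. With stem as a random effect 2 members of the list were called. By edgeR on counts added up by stem 0 were (2 at an unadjusted p under 0.05), with an adjusted p of 0.1665 for Cyp2c70.

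Immediate early genes are switched on within minutes of a stimulus, and some of them fell in FAT-40 livers. With 6.54% of all genes called, 7 of 38 tested members fell, none rose and 31 were not called. Their median log2 fold change was -0.34. Over stems, 1 was called with stem as a random effect and 0 by edgeR on counts added up by stem (10 at an unadjusted p under 0.05). Egr1, a zinc finger factor, had 6.31, 20.7 and 85.8 CPM in FAT-40 livers, against 15.9, 51.2 and 369 CPM in FAT-20 livers. The ranges overlapped, and the highest values were 345, 191, 283 and 369 CPM in FAT-20 replicates 3 to 6. The log2 fold change was -2.30 ± 0.49 (SE; edgeR adjusted p = 0.00168). Over stems the FAT-40 and FAT-20 values overlapped (exact two-sided permutation p = 0.0571), and Egr1 was not called when counts were added up by stem or with stem as a random effect.

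The Fos genes were highest in FAT-20 replicates 3 and 5. Fos, part of the AP-1 factor, measured 2.09, 3.44 and 18.8 CPM in FAT-40 livers, against 2.61, 9.45 and 260.1 CPM in FAT-20 livers, with 205 and 260.1 CPM in FAT-20 replicates 3 and 5. Fosb, its relative, measured 0.175, 0.471 and 2.9 CPM in FAT-40 livers, against 0.152, 0.97 and 129 CPM in FAT-20 livers, with 73.8 and 129 CPM in the same replicates. The log2 fold changes were -3.31 for Fos and -4.54 for Fosb, and without FAT-20 replicate 5 the log2 ratio of FAT-40 over FAT-20 means was -2.59 for Fos, in place of -3.31, and -3.35 for Fosb, in place of -4.58. With stem as a random effect in limma the log2 fold changes were -1.69 for Fos (adjusted p = 0.262) and -1.36 for Fosb (0.503). On counts added up by stem they were -3.23 for Fos and -4.39 for Fosb, and neither was called (edgeR adjusted p = 0.0525 and 0.0549). Without FAT-20 replicates 3 and 5, 2 members of the list were called and its median was -0.16. Gadd45b, a stress-response protein, measured 0.852, 3.02 and 5.96 CPM in FAT-40 and 4.74, 7.43 and 20.2 CPM in FAT-20. All 12 FAT-40 libraries were below the FAT-20 median (log2 fold change -1.38 ± 0.32, SE; edgeR adjusted p = 0.00344), and it was called with stem as a random effect (limma adjusted p = 0.035) but not on counts added up by stem (edgeR adjusted p = 0.124). Maff fell by 1.13, Ier2 by 0.98, a call lost without FAT-20 replicate 6, and Klf4 by 0.62, a call lost without FAT-40 replicate 3, 6 or 12 or FAT-20 replicate 3, 5 or 7; Atf3 was not called (-1.47, edgeR adjusted p = 0.0647), and without FAT-20 replicate 5 its log2 ratio of means was -0.79, against -1.49 with it.

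**Figure D3:**
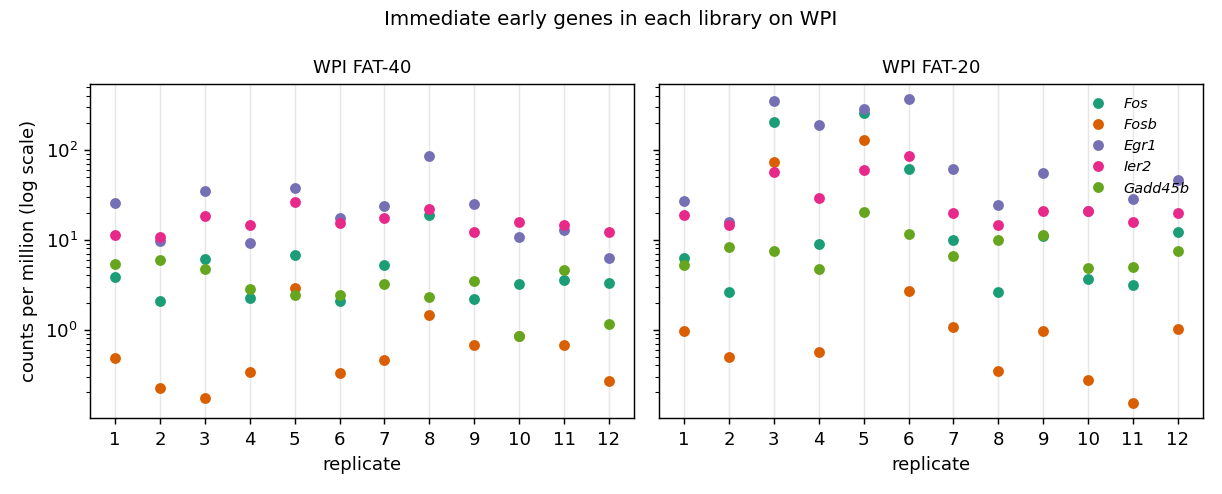
CPM (log axis) of Fos, Fosb, Egr1, Ier2 and Gadd45b in each of the 12 FAT-40 libraries (left) and 12 FAT-20 libraries (right) on WPI, by replicate number. FAT-20 replicates 3 and 5 stand above the others in Fos and Fosb, at 73.8 and 129 CPM of Fosb.

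Several of the largest fold changes on the higher side belonged to genes that varied between stems. Mup17, a major urinary protein gene with near-identical copies, measured 0.287, 22.5 and 537 CPM in FAT-40 livers and 0.123, 3.2 and 20.6 CPM in FAT-20 livers (log2 fold change 4.18 ± 0.72, SE; edgeR adjusted p = 9.89e-05). Its stem means in FAT-40 were 389 CPM for M8D, 38.6 for M4C, 23.6 for M8F and 14.1 for M9F, and without M8D the log2 fold change was 1.99 and still called. Its call was lost on counts added up by stem (edgeR adjusted p = 0.0525) and with stem as a random effect (limma adjusted p = 0.114). Moxd1, a male-biased liver monooxygenase, averaged 260.1 CPM in M8D and 1.08, 22.3 and 0.057 CPM in M4C, M8F and M9F. Its log2 fold change of 2.93 turned to -0.28 without M8D. Selenbp2, a selenium-binding protein, had 516 CPM in M8D and at most 66.4 CPM as the mean of another FAT-40 stem, for a log2 fold change of 2.29 over FAT-20 and of 0.63, no longer called, without M8D.

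For other genes the stem M8D was the lowest of the FAT-40 stems. Cyp2b9, a female-biased cytochrome with near-identical relatives, had 0, 50.1 and 489.7 CPM in FAT-40 livers and 0.133, 3.24 and 38.9 CPM in FAT-20 livers, a log2 fold change of 3.77 ± 0.76 (SE; edgeR adjusted p = 7.53e-04). With stem as a random effect in limma it was 1.54 (adjusted p = 0.623). On counts added up by stem it was 3.75 and the gene was not called (edgeR adjusted p = 0.155). Its mean was 0.0441 CPM in M8D and 206, 27.2 and 335 CPM in M4C, M8F and M9F. Themis, best known from T cells, averaged 0.721 CPM in M8D and 15.5, 6.36 and 15.9 CPM in the same order, and its log2 fold change was 2.05, a call lost over stems in both settings (adjusted p = 0.159 with edgeR on sums and 0.298 with limma). Cux2, a female-biased liver factor, moved the other way from Cyp2b9, at 0.354, 0.714 and 4.56 CPM in FAT-40 and 0.55, 2.66 and 34.7 CPM in FAT-20 (log2 fold change -2.50); it was called on counts added up by stem (edgeR adjusted p = 0.025) and not with stem as a random effect (limma adjusted p = 0.198). With 6.54% of all genes called, 6 of 32 tested genes of the growth hormone and sex-biased list rose. A further 3 fell and 23 were not called (median -0.01). Of the list, 1 was called when counts were added up by stem and 0 by limma with stem as a random effect (7 at an unadjusted p under 0.05).

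**Figure D4:**
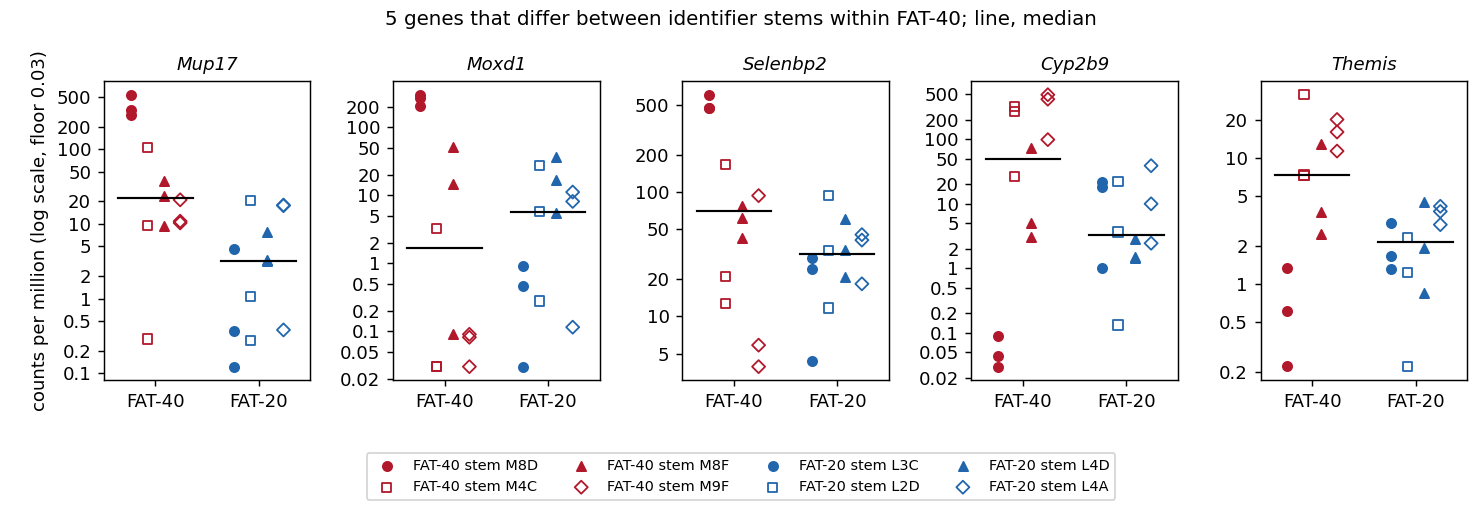
CPM (log axis, values under 0.03 drawn at 0.03) of Mup17, Moxd1, Selenbp2, Cyp2b9 and Themis in the FAT-40 (left, red) and FAT-20 (right, blue) libraries on WPI, with a shape per identifier stem and a line at the median. The 3 libraries of stem M8D (red filled circles) are the highest for Mup17, Moxd1 and Selenbp2 and among the lowest for Cyp2b9 and Themis.

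Other large rises rested on a single library or lost their call in other settings. The pancreas protease gene Ctrl (log2 fold change 4.26) was at 71.3 CPM in FAT-40 replicate 2, the library with pancreas mRNA, and without that library the fold change was -0.03. Ighg1, an antibody heavy chain, reached 19.6 CPM in FAT-40 replicate 8, and leaving it out moved the log2 of FAT-40 over FAT-20 means to 0.54, against 2.90 with it, and the gene did not pass the filter on low counts. Cela1, whose fitted log2 fold change was 1.57, had a log2 ratio of means of 0.78 without FAT-40 replicate 2, against 1.58 with it. The oxidase Hao2 rose by 3.09 and the anion carriers Slc22a29 and Slc22a27 by 2.42 and 2.18. With stem as a random effect these were 2.14, 1.72 and 1.21, and all 3 calls were lost (limma adjusted p = 0.418, 0.167 and 0.438). On counts added up by stem they were 3.08, 2.43 and 2.20, and all 3 calls were lost too (edgeR adjusted p = 0.155, 0.123 and 0.154). Mup18 rose by 2.71, a value of 0.53 without stem M8D, and Cyp2a4, a near-identical relative of another Cyp2a gene, by 2.21, a call lost when any 1 of 14 libraries was left out (FAT-40 replicates 5, 6, 10, 11 and 12 and FAT-20 replicates 1, 3, 4, 5, 7, 8, 9, 10 and 12); without FAT-20 replicate 11 its log2 ratio of means was 2.85, against 2.22 with it. Among the deepest falls, Krt19, a bile duct keratin (-1.46), had a log2 fold change of -0.13 without FAT-20 replicate 7 (edgeR adjusted p = 0.882), and the pseudogene Gtpbp4-ps1 (-1.64) lost its call without FAT-20 replicate 9.

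Markers of other cell types were compared because the tissue was not sorted. The summed level of 20 Kupffer cell and macrophage markers ran from 742 to 1188 CPM in FAT-40 and from 545 to 1093 CPM in FAT-20, and that of 16 endothelial markers from 773 to 941 CPM in FAT-40 and from 673 to 954 CPM in FAT-20. By edgeR 0 of the 20 macrophage, 19 stellate, 16 endothelial and 17 lymphocyte markers tested were called, with 3, 2, 1 and 1 at an unadjusted p under 0.05, in that order; without stem M8D 1 macrophage marker was called, lower in FAT-40. Of 7 tested cholangiocyte and gallbladder markers 1 was higher and 1, Krt19, lower, with 5 at an unadjusted p under 0.05, and 0 were called by edgeR on counts added up by stem (2 at an unadjusted p under 0.05) or with stem as a random effect (0). Their sum over 11 markers had a median of 54.1 CPM in FAT-40 and 44.3 CPM in FAT-20, with ranges of 39.7 to 92.1 CPM in FAT-40 and 34.8 to 85.6 CPM in FAT-20. By edgeR 0 of 4 neutrophil, 0 of 5 erythroid and 0 of 4 fat cell markers tested were called, with 1, 3 and 1 at an unadjusted p under 0.05 and median log2 fold changes of 0.46, -0.38 and 0.09, in that order. The 14 pancreas and gut markers summed to 64.4, 108 and 1360.0 CPM in FAT-40 (lowest, median and highest), against 52.5, 83.8 and 97.6 CPM in FAT-20; the highest was replicate 2, and Ins2 and Fabp6 were at 0 throughout. The 12 hepatocyte markers summed to 85059 to 149002 CPM in FAT-40 and 101087 to 139021 CPM in FAT-20. Of these 12, 1, Fga, was called, higher in FAT-40, and 0 were called over stems in either setting. No member of the interferon response list was called (0 of 46 tested, 11 at an unadjusted p under 0.05, median log2 fold change 0.21), although 43 of the 46 had a positive value. With sample quality weights 1 interferon response gene was called, lower in FAT-40.

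To see whether the change continued at a higher fat level, FAT-55 livers on WPI were set against the same FAT-40 livers. Here 344 of 15051 genes (2.29%) were called, 205 higher (1.36%) and 139 lower (0.924%) in FAT-55, in the fit of all 6 diets; by edgeR 0 were called when only these diets were fitted (1828 at an unadjusted p under 0.05) and 0 when counts were added up by stem (1641). Ehhadh measured 1256, 2107 and 3942 CPM at FAT-20, 379.9, 601 and 979 CPM at FAT-40 and 440.1, 531 and 747 CPM at FAT-55, and the step from FAT-40 to FAT-55 was not called (log2 fold change -0.19, edgeR adjusted p = 0.611). Cyp4a31 fell further at FAT-55, by 0.86 relative to FAT-40 (edgeR adjusted p = 0.0393). Pygl measured 217, 275 and 346 CPM at FAT-20, 310.2, 397 and 522 CPM at FAT-40 and 369, 443 and 513 CPM at FAT-55. Fasn was highest in the middle, with means of 123 ± 43.4 CPM at FAT-20, 252 ± 117 CPM at FAT-40 and 169.9 ± 55.9 CPM at FAT-55 (SD, n = 12 each), and its last step was not called (log2 fold change -0.57, edgeR adjusted p = 0.186). Of the genes with the smallest adjusted p in this step, Myom3 (2.06) and Taco1 (0.27) were higher in FAT-55, and Emp2 (-0.86), Tff3 (-4.25), Moxd1 (-6.94) and Ctrl (-4.59) lower; Moxd1 was high in stem M8D and Ctrl in FAT-40 replicate 2, as described above.

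**Figure D5:**
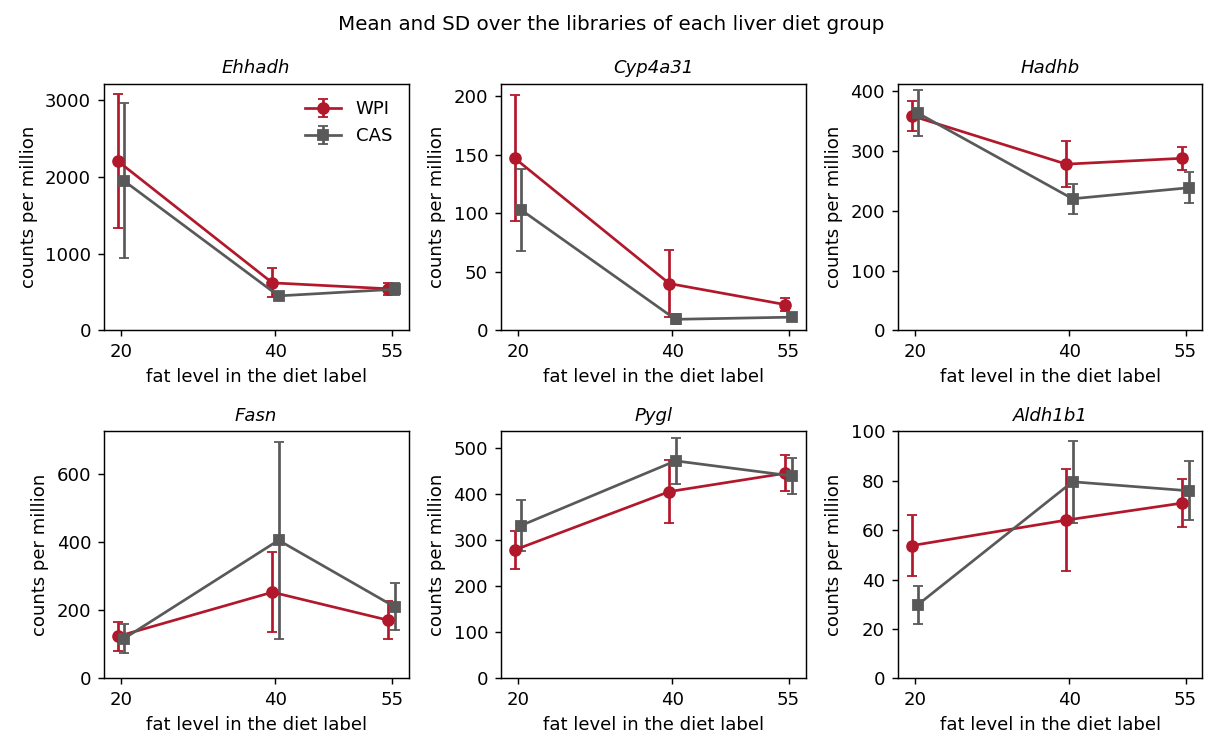
Mean and SD of CPM at the 3 fat levels of the diet label (x axis, no unit in the labels) for Ehhadh, Cyp4a31, Hadhb, Fasn, Pygl and Aldh1b1 in livers on WPI (red circles) and on CAS (grey squares). Ehhadh on WPI averages 2207 ± 872 CPM at FAT-20, 620.1 ± 191 at FAT-40 and 543 ± 78.8 at FAT-55.

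To ask whether the response to FAT-40 depended on the protein, it was set against the same step on CAS, which shares no library with it. On CAS 4540 genes (30.2%) were called, and 705 genes were called on both proteins in the same direction, which is 71.6% of the WPI calls and 15.5% of the CAS calls; 3 were called in opposite directions. The difference between the steps was called for 224 genes (1.49%), 132 more positive (0.877%) and 92 more negative (0.611%) on WPI, and 40 of the 984 WPI calls were among them. With stem as a random effect 2 genes were called, both more negative on WPI, and by edgeR on counts added up by stem 0 (1560 at an unadjusted p under 0.05).

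In the fit over single libraries Cyp4a31 and Hadhb fell less on WPI than on CAS. Neither setting over stems called any difference as more positive on WPI, that of Cyp4a31 or Hadhb included. Ehhadh had log2 fold changes of -1.83 on WPI and -2.11 on CAS, with a difference of 0.28 ± 0.25 (SE; edgeR adjusted p = 0.61). Cyp4a31 fell by 1.88 on WPI and had a log2 fold change of -3.43 on CAS (difference 1.56 ± 0.34, SE; edgeR adjusted p = 0.0106). Hadhb had -0.37 on WPI and -0.72 on CAS (difference 0.35 ± 0.09, SE; edgeR adjusted p = 0.0237). Aldh1b1, a mitochondrial aldehyde dehydrogenase, measured 35.4, 59 and 114 CPM in FAT-40 and 27.9, 54.4 and 75.7 CPM in FAT-20 livers on WPI, a log2 fold change of 0.25. On CAS it measured 52.1, 76.9 and 110.1 CPM in FAT-40 and 17.5, 30.7 and 44.5 CPM in FAT-20 livers, a log2 fold change of 1.42, and the difference was -1.17 ± 0.19 (SE; edgeR adjusted p = 3.74e-04). Fasn rose on both, by 1.04 on WPI and 1.80 on CAS, with a difference of -0.76 ± 0.34 that was not called (edgeR adjusted p = 0.241).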

How the data were processed

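The deposited liver table held counts, that is, whole reads per gene over 55536 genes (55450 with a symbol), which the authors had not scaled. The submitters' processing notes name STAR, Trim Galore 0.61, cutadapt, FastQC, DESeq2 1.24.0 and the build GRCm38; the annotation release and strand setting are not given in the sources used here. The 4 entries that name no gene took 24.5% of the reads of the 24 libraries, and reads matching several places alone 7.82%, so levels of near-identical genes are uncertain. Depth was 21.1 to 32.3 M reads on genes, and no columns were identical.

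In R 4.3.3, edgeR 4.0.16 fitted its quasi-likelihood model to genes that passed filterByExpr with a count of 10 and a total of 15, with TMM factors, 1 coefficient for each of 6 diets over all 70 liver libraries, Benjamini-Hochberg over 15051 genes, called under 0.05. CPM are TMM-scaled. SE is the log2 fold change over the root of its F. The contrasts were WPI FAT-40 minus FAT-20, its difference from the same step on CAS, and WPI FAT-55 minus FAT-40. The alternatives tried were no filter, fewer diets in the fit, DESeq2 1.42.0, scaling by median of ratios, sums by stem, limma 3.58.1 with stem as a random effect or with quality weights, and leaving out each library or stem. The limma settings average log2 values and edgeR compares mean counts, so their fold changes can differ for reasons other than stem. Libraries on different diets came from different mice and are not paired. The fit was tested on simulated data. Coordinates are those of GENCODE M21 (GRCm38).

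Named genes were 4 markers, up to 12 with the largest called rise and 12 with the largest called fall at a mean of 1 CPM or more, up to 5 per gene list by adjusted p, and up to 6 for each other contrast. The contrast, the 47 gene lists and the genes were chosen with earlier results of these data known. Genes given outside this rule, members that were not called among them, were chosen after their values were seen.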

Additional observations from a re-analysis of the deposited data

Results flagged for a closer look

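The genes here had a response to FAT-40 that differed between WPI and CAS by the test of the difference itself (edgeR adjusted p under 0.05 over all genes), given as the log2 fold change on WPI minus that on CAS. The difference was 9.45 for Moxd1, 2.98 for Selenbp2 and 3.42 for Mup17, and all 3 genes were high in the stem M8D of WPI FAT-40. It was 4.21 for Ctrl and 4.05 for Ighg1, each high in 1 library of WPI FAT-40, and -4.66 for Fosb, high in 2 libraries of WPI FAT-20. For Tff3, a trefoil peptide, it was 4.53. Its log2 ratio of FAT-40 over FAT-20 means on WPI was 1.09, or 0.39 without FAT-40 replicate 3 of stem M8D. The log2 fold change was -0.056 with stem as a random effect in limma and 1.12 on counts added up by stem. The oxidation genes Cyp4a31 and Hadhb differed by 1.56 and 0.35, and the antisense RNA Gm15441 by 2.0, with the fall smaller on WPI. Aldh1b1 differed by -1.17, the sulfatase gene Sulf2 by -1.14, the DNA polymerase subunit gene Pole by -1.20, Pigu, of the GPI anchor pathway, by 0.38 and the long noncoding RNA Gm2814 by 1.58. Pole had log2 fold changes of 0.03 on WPI and 1.23 on CAS, and Sulf2 of -0.04 on WPI and 1.11 on CAS. When counts were added up by stem, no difference of this kind was called by edgeR, so none of these genes passes at 4 samples per diet.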

How the results depend on the processing

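The main setting called 984 genes. No filter on low counts called 618 (556 of them among the 984), only the compared diets in the fit 555 (488; 295 higher, 260 lower), stem as a random effect 249 (248) and counts added up by stem 58 (58). Leaving out 1 library gave 736 to 1253, and leaving out 1 stem 430 to 1168, with 604 without L3C, 430 without L4D and 523 without M4C. Without FAT-20 replicates 3 and 5, a choice made after seeing the data, 611 were called. For the difference from CAS (224 genes), DESeq2 gave 370, no filter 107, quality weights 538, stem as a random effect 2 and sums by stem 0. For FAT-55 against FAT-40 (344 genes), DESeq2 gave 535, no filter 227, stem as a random effect 3, and both the compared diets alone and sums by stem 0. Among the named genes not called in the main setting, 11 were called in at least 1 alternative. They were Acaca, Acot2, Atf3, Cidea, Gm2814, Hspa5, Hyou1, Manf, Mogat1, Taco1 and Thrsp. Of 86 named genes that were called, 18 kept their call in every alternative, Ehhadh, Acot1, Cyp4a14, Retsat, Hsd17b11, Hadhb and Pygl among them. The direction turned for 3, and leaving out 1 library or stem gave -0.28 to 3.58 for Moxd1 and -0.25 to 4.65 for Ctrl. Moxd1 was at -0.39 with stem as a random effect, -0.78 with quality weights, -0.28 without stem M8D and -0.13 without M8D and FAT-20 replicates 3 and 5. On counts added up by stem Moxd1 was at 3.01. Ctrl was at -0.046 with DESeq2, -0.03 without FAT-40 replicate 2, -0.25 without M8D and -0.19 without M8D and FAT-20 replicates 3 and 5, and Fosb at 0.060 in this last setting. The cause was not tested. No paired analysis was possible because replicate numbers follow accession order and mice on different diets are not linked by the labels.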

Other observations

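Beside the chaperones, some other genes of the secretory pathway rose in FAT-40 livers; these lists were put together after the values were seen and are described only. Of 37 tested genes of the translocon, signal peptide handling and oligosaccharyl transferase, which bring new proteins into the reticulum and add sugars, 14 rose, none fell and 23 were not called (median log2 fold change 0.13, against 0.01 over all genes). Stt3a, a catalytic subunit of the transferase, had 79.9, 96.2 and 108 CPM in FAT-40 livers and 62.5, 72.3 and 82.1 CPM in FAT-20 livers (log2 fold change 0.37 ± 0.06, SE; edgeR adjusted p = 1.93e-05). Of 34 genes of vesicles between the reticulum and the Golgi 11 rose, 2 fell and 21 were not called (median 0.10), with 6.54% of all genes called. On counts added up by stem no vesicle gene was called (lowest edgeR adjusted p = 0.0656), and most calls of the translocon list were lost. The UFM1 pathway, which attaches a ubiquitin-like protein to ribosomes at the reticulum, had 8 tested genes, of which 4 rose and 4 were not called (median 0.14). Among those that rose were Ufl1, its ligase, by 0.37, Cdk5rap3 by 0.33 and Ufm1 itself by 0.23. Cdk5rap3, Ufm1 and Stt3a were called in every alternative, and Ufl1 was not called on counts added up by stem (edgeR adjusted p = 0.0549).

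Among 16 tested major urinary protein genes, which are near-identical copies, 5 rose and 11 were not called (median log2 fold change 0.87). Of these 5, Mup2 alone was also called on counts added up by stem and with stem as a random effect. Mup2 had 2.88, 6.19 and 9.08 CPM in FAT-40 livers and 2.02, 2.61 and 3.96 CPM in FAT-20 livers, a rise of 1.17. Agxt2, a mitochondrial aminotransferase, had 113, 169 and 238 CPM in FAT-40 livers and 91.3, 115 and 145 CPM in FAT-20 livers (log2 fold change 0.52 ± 0.07, SE; edgeR adjusted p = 3.54e-06). Prg4, a secreted proteoglycan, had 52.4, 84 and 128 CPM in FAT-40 livers and 33.8, 45.2 and 75.4 CPM in FAT-20 livers (log2 fold change 0.81 ± 0.12, SE; edgeR adjusted p = 7.63e-06). All 12 FAT-40 libraries were above the FAT-20 median for Prg4, and 11 of 12 for Agxt2. These genes were also chosen after their values were seen.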
